A study of Ovis aries with 6 samples.

Results

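The genes described here are those of RNA splicing and ribonucleoprotein particles on an Agilent sheep expression array: small nuclear ribonucleoprotein (snRNP) proteins, SR proteins and other splicing factors, heterogeneous nuclear ribonucleoproteins (hnRNPs), RNA helicases and other RNA-binding proteins. Gene probes were taken where the array's description contained splicing factor, ribonucleoprotein, spliceosom, pre-mRNA, RNA helicase, ATP-dependent RNA or RNA-binding protein, or where the gene name began with HNRNP, SNRP, SF3, SRSF or DDX, and 1 gene was left out by name. The choice used no measured value. It gave 38 probes for 35 genes, of 15008 probes for 14224 genes and unnamed transcripts on the array. Of the 35 genes, 33 were measured, meaning that the scanner software marked a probe as well above background on 3 or more of the 6 arrays, and HNRNPH3 and PCF11 were not.

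The study compared 3 samples of sheep skin epidermal stem cells with 3 samples of sheep corneal epithelial cells, called cell lines by the series' design text, each on 1 single-colour array. The cells were grown as adherent cultures and detached with trypsin before RNA extraction, and the labels name no treatment and give neither breed nor age. The labels do not say whether the 3 samples of a group came from separate animals, so p-values measure no more than the variation among these 6 samples, and that variation may be technical. All 6 arrays lay on 1 slide under 1 scan time, with the epidermal samples in its row 1 and the corneal samples in its row 2, so an effect of the row cannot be told apart from the cell type.

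Pre-mRNA splicing removes introns from newly made transcripts. The spliceosome does this with snRNPs, of which U1 recognises the start of an intron and U2 the branch site near its end. SR proteins and hnRNPs bind the pre-mRNA and shift which exons are kept, and RNA helicases rearrange the RNA and protein contacts at each step. Most of these proteins are made in nearly every cell type, epithelial cells included.

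Each probe is a 60-base DNA oligo, and a probe reads 1 stretch of 1 transcript, so a gene with 2 probes is read at 2 places. The oligo sequences are shown where the account turns on which stretch was read, and were taken 5′ to 3′ from the deposited array files. The SRSF3 probes are given whole, with the 41 bases they share in capitals, since they are nearly one measurement. For the others the first 30 bases are given in lower case, with no part marked.
SRSF3, brighter probe: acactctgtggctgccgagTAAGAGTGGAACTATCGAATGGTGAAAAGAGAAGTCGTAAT
SRSF3, dimmer probe: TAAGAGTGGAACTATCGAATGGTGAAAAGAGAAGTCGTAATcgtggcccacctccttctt
DHX9, brighter probe: atgatcttggacaacttatattttgtctta
DHX9, dimmer probe: ttctcattaattctggatttccagaagagt
HNRNPH1, brighter probe: ttttacaggaaaactccagtgattttcatc
HNRNPH1, dimmer probe: gggcgctctgcctcagaggaggatgttttt
CIRBP, probe in the set: ttagctagctctcctgttgctttacaagtt
CIRBP, probe outside the set: tttgggtttgtcacctttgaaaacatcgac
SNRPA1, the member with the largest fall: atattgccaggagaagcaaaactttcaatc
STAU2, the member with the largest rise: taagacattttcatccctctggtctggctt

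Values below are normalized log2 signals, that is, the log2 of a probe's signal minus the 75th percentile of its array, so that 0 is the 75th percentile. A change is corneal minus epidermal on that log2 scale, with its standard error (SE) from limma fitted over 11243 genes and transcripts, and it was called where the Benjamini-Hochberg adjusted p was under 0.05. Of the 33 measured members, 4 rose and 14 fell in corneal cells and 15 did not pass, so 54.5% were called, near the 59.3% called among all genes and transcripts tested. The falls took 42.4% of the set against 32.6% of all tested, and the rises 12.1% against 26.7%. These shares are a description and were not tested against each other. In bulk RNA, fewer cells of a type and less RNA per cell cannot be told apart.

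The 33 changes ran from -0.95 to 0.86 with a median of -0.10, where all tested had a median of -0.04. The median size of a change was 0.24 in the set and 0.24 over all tested. With limma, 0 members changed by at least 2-fold in either direction at an adjusted or an unadjusted threshold, while 3.37% of all tested were higher and 3.98% lower by at least that much. A change of at least 0.5 in size was seen in 12.1% of members and 22.7% of all tested. The 3 corneal values all lay above the 3 epidermal values for 5 of the 33 members (15.2%), against 30.4% of all tested. They all lay below them for 14 of the 33 (42.4%), against 36.9%.

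**Figure D1:**
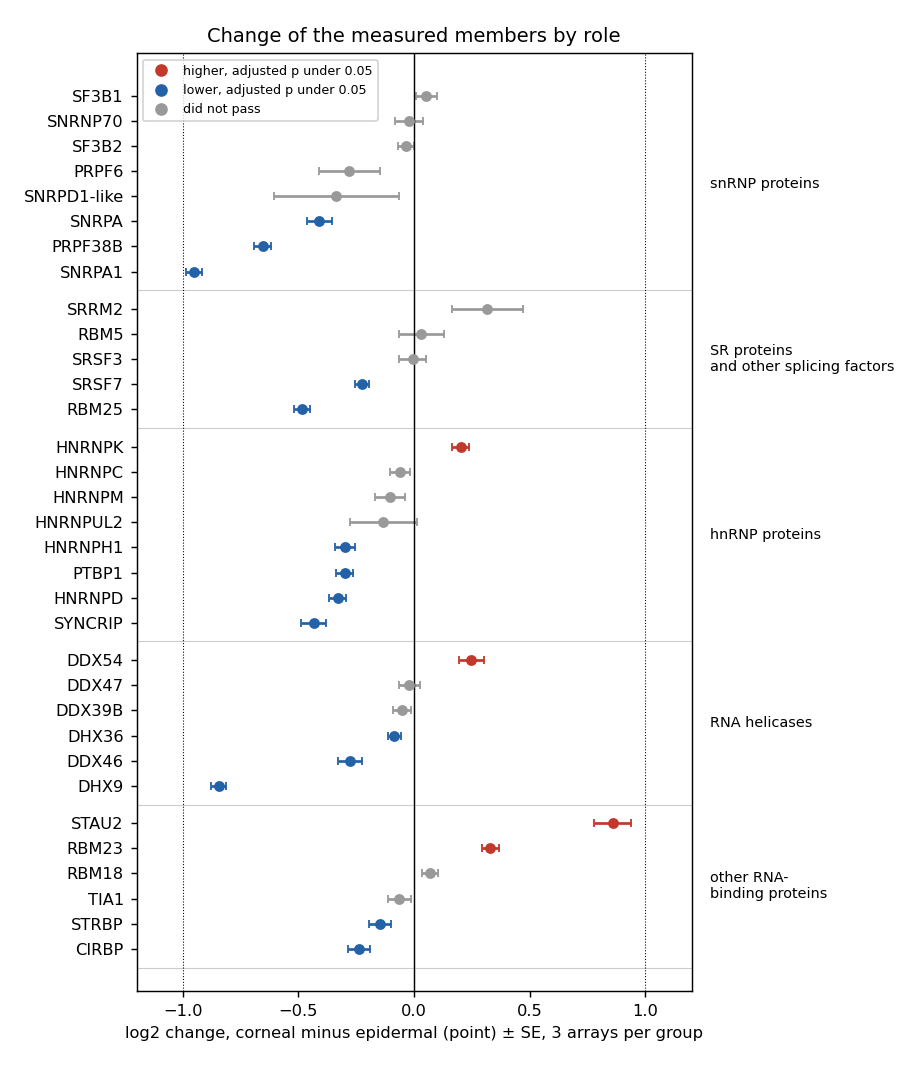
Log2 change, corneal minus epidermal, for the 33 measured members (points, with bars of 1 SE from limma, 3 arrays per group), grouped by role and coloured by call. Points left of 0 were lower in corneal cells; the 14 falls reach -0.95 (SNRPA1) and the 4 rises reach 0.86 (STAU2).

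Of 8 proteins of the snRNPs and their partners, 3 fell in corneal cells (37.5%, near the 32.6% of all tested), and the median change was -0.31. That median lay between PRPF6 (-0.28) and a dim probe resembling SNRPD1 (-0.34), neither of which passed. With another background correction (normexp) their changes were -0.14 and 0.07, so the median is no firm measure of the group. In the limma fit 0 rose at an adjusted or unadjusted p under 0.05, while 26.7% of all tested were called higher. SNRPA1, the U2 snRNP protein A′, had normalized log2 signals of 2.53, 2.50 and 2.46 in the epidermal samples and of 1.54, 1.58 and 1.52 in the corneal samples. The groups lay far apart compared with their spread, and SNRPA1 fell by 0.95 (SE 0.03; limma adjusted p = 8.57e-06), a 1.93-fold lower signal and the largest change of the set. PRPF38B, a spliceosome protein of the PRP38 family, had signals of 0.81, 0.84 and 0.77 in epidermal and of 0.12, 0.13 and 0.21 in corneal samples. It fell by 0.65 (SE 0.04; limma adjusted p = 5.18e-05), again without overlap.

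SNRPA, the U1 snRNP protein A, had a dim probe, with signals of -3.76, -3.82 and -3.88 in epidermal and of -4.18, -4.31 and -4.20 in corneal samples. It fell by 0.41 (SE 0.05; limma adjusted p = 0.00119), and with another background correction (normexp) the fall was 0.11. The other U1 protein measured, SNRNP70, which binds U1 RNA beside SNRPA, did not pass: its signals ran from -1.46 to -1.38 in epidermal and from -1.56 to -1.36 in corneal samples. Its change was -0.02, with a 95% confidence interval of -0.17 to 0.13.

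SF3B1 and SF3B2 belong to the SF3b complex, through which U2 holds the branch site. SF3B1 gave -0.72, -0.81 and -0.70 in epidermal and -0.73, -0.64 and -0.69 in corneal samples, which overlap. Its change of 0.05 (SE 0.04; limma adjusted p = 0.34) had a 95% confidence interval of -0.06 to 0.16. SF3B2 changed by -0.04 (-0.12 to 0.05). SNRPA1 and the SF3b proteins are all parts of the U2 particle, and the difference between their changes was not tested.

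PRPF6, which bridges the U5 and U4/U6 particles, spread widely: -2.75, -3.09 and -3.19 in epidermal against -3.13, -3.34 and -3.39 in corneal samples. Its change of -0.28 (SE 0.13) did not pass (limma adjusted p = 0.121), although it did with the replicate number as a block (adjusted p = 0.0185). The remaining snRNP probe resembles SNRPD1 only by a weak match of the array's description to a worm protein, so its gene is uncertain. It exceeded background on 3 epidermal and 2 corneal arrays, and its change of -0.34 (SE 0.27) did not pass.

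Among the 5 SR proteins and other splicing factors, 2 fell and 0 rose in the limma fit at an adjusted or unadjusted p under 0.05. The falls made up 40% and the rises 0%, against 32.6% and 26.7% of all tested. RBM25, a regulator of alternative splicing that associates with U1, had signals of 2.07, 2.13 and 2.15 in epidermal and of 1.65, 1.64 and 1.61 in corneal samples. It fell by 0.49 (SE 0.03; limma adjusted p = 0.000112), a 1.40-fold lower signal. SRSF7, an SR protein, had signals of 2.35, 2.34 and 2.30 in epidermal and of 2.13, 2.10 and 2.08 in corneal samples. The groups did not overlap, but the gap was small: it fell by 0.23 (SE 0.03; limma adjusted p = 0.0016).

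SRSF3, an SR protein that also takes part in mRNA export, did not pass. Its brighter probe gave -0.20, -0.32 and -0.31 in epidermal and -0.19, -0.30 and -0.36 in corneal samples. The change was -0.01 with a 95% confidence interval of -0.15 to 0.14, so a fall as large as that of SRSF7 lay outside the interval. The dimmer probe, which shares the 41 capital bases printed above and is no independent check, had an adjusted p of 0.990.

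SRRM2, a large scaffold protein of nuclear speckles, varied within both groups, with signals of 0.66, 0.54 and 0.25 in epidermal and of 1.06, 0.63 and 0.71 in corneal samples. Its change of 0.32 (SE 0.15) did not pass (limma adjusted p = 0.126) and had a 95% confidence interval of -0.06 to 0.70. RBM5, a splicing regulator of apoptosis genes, changed by 0.03 (SE 0.10; adjusted p = 0.8) at its probe in the set.

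The hnRNPs coat nascent transcripts and act in splicing, export, stability and translation. Of 8 measured, 4 fell, 1 rose and 3 did not pass, with a median change of -0.22. The falls made up 50% and the rises 12.5%, against 32.6% and 26.7% of all tested. SYNCRIP (hnRNP Q), which acts mainly on cytoplasmic mRNA, had signals of -0.02, -0.13 and -0.09 in epidermal and of -0.58, -0.42 and -0.54 in corneal samples. It fell by 0.43 (SE 0.06; limma adjusted p = 0.00117). HNRNPD (AUF1), which binds AU-rich elements and speeds mRNA decay, had signals of 2.23, 2.33 and 2.27 in epidermal and of 1.92, 1.97 and 1.95 in corneal samples.

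HNRNPD fell by 0.33 (SE 0.04; limma adjusted p = 0.000665). PTBP1 (hnRNP I), a repressor of exon inclusion that binds pyrimidine-rich RNA, had signals of -1.12, -1.19 and -1.10 in epidermal and of -1.42, -1.47 and -1.41 in corneal samples. It fell by 0.30 (SE 0.04; limma adjusted p = 0.00113). In SYNCRIP, HNRNPD and PTBP1 alike, no corneal sample reached the lowest epidermal sample.

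HNRNPK, which binds C-rich RNA and DNA, went the other way. Its signals were 2.38, 2.47 and 2.44 in epidermal and 2.62, 2.66 and 2.62 in corneal samples. It rose by 0.20 (SE 0.04; limma adjusted p = 0.0046) without overlap between the groups, and the call was lost when arrays were not scaled (change 0.03, adjusted p = 0.715). HNRNPC, which binds uridine tracts and keeps cryptic exons silent, did not pass (change -0.06, interval -0.17 to 0.05). HNRNPM (change -0.10) and HNRNPUL2 (change -0.13, SE 0.14) did not pass either.

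HNRNPH1 binds G-rich RNA, and its 2 probes did not give one answer. The brighter probe had signals of 0.70, 0.60 and 0.59 in epidermal and of 0.30, 0.35 and 0.35 in corneal samples, and fell by 0.30 (SE 0.04; limma adjusted p = 0.00171). The dimmer probe had signals of -2.60, -2.55 and -2.40 in epidermal and of -2.44, -2.41 and -2.35 in corneal samples, which overlap. Its change was 0.11 (SE 0.06; limma adjusted p = 0.167 with every probe tested on its own). Whether either probe separates HNRNPH1 from its close paralog HNRNPH2 was not tested.

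HNRNPH3, a relative of HNRNPH1, was not measured: its probe exceeded the background clearly on 2 epidermal arrays and on 0 corneal ones. Its signals were -6.17, -6.51 and -5.75 in epidermal and -7.67, -6.71 and -7.22 in corneal samples and did not overlap. Tested without the filter on dim probes, its change was -1.06 (SE 0.31; limma adjusted p = 0.0416). With corneal values raised to the lowest signal that counted as above background on each array, HNRNPH3 was 1.13-fold lower in corneal cells. The epidermal mean includes an array not clearly above background, so this value is no firm minimum. The p belongs to the fitted change, not to this value. PCF11, a factor of mRNA 3′ end formation, was above background on 0 arrays, and its level was not detectable on these arrays.

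**Figure D2:**
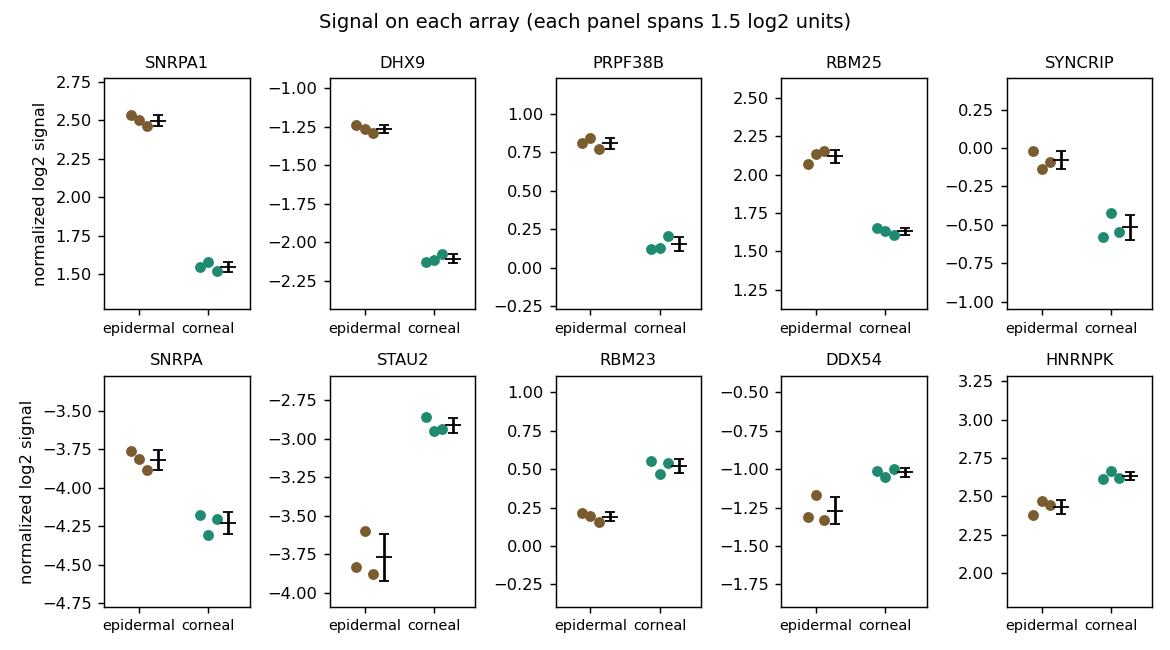
Normalized log2 signal of 10 members on each of the 6 arrays (points), with the mean and SD of each group of 3; every panel spans the same height, so gaps can be compared between panels but levels cannot. In SNRPA1, DHX9, PRPF38B, RBM25, SYNCRIP and SNRPA the corneal points lie below the epidermal ones, and in STAU2, RBM23, DDX54 and HNRNPK above them.

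RNA helicases use ATP to unwind RNA or strip proteins from it. Of 6 measured, 3 fell, 1 rose and 2 did not pass, with a median change of -0.07. The falls made up 50% and the rises 16.7%, against 32.6% and 26.7% of all tested. DHX9 (RNA helicase A), which acts in transcription and RNA processing, had signals at its brighter probe of -1.24, -1.27 and -1.29 in epidermal and of -2.13, -2.12 and -2.07 in corneal samples. It fell by 0.84 (SE 0.03; limma adjusted p = 9.7e-06), a 1.80-fold lower signal and the second widest fall of the set. After normexp the DHX9 fall was 0.62, beside 0.64 for PRPF38B. The dimmer probe, which reads another stretch, had signals of -3.91, -4.05 and -4.08 in epidermal and of -4.55, -4.57 and -4.32 in corneal samples. It fell too, by 0.47 (SE 0.09; adjusted p = 0.00504 with every probe tested on its own), so the probes share the direction and differ in size.

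DDX46, the ATPase that helps U2 settle on the branch site, had signals of -0.30, -0.26 and -0.43 in epidermal and of -0.58, -0.63 and -0.60 in corneal samples. It fell by 0.28 (SE 0.05; limma adjusted p = 0.00593). DHX36, which unwinds G-quadruplexes, fell by 0.09 (SE 0.03; limma adjusted p = 0.0423), and this call was lost in 12 of 15 alternative analyses. DDX54, a nucleolar helicase, rose: its signals were -1.31, -1.17 and -1.33 in epidermal and -1.01, -1.05 and -1.0 in corneal samples.

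The rise of DDX54 was 0.25 (SE 0.05; limma adjusted p = 0.0087), and the call was lost without scaling (0.08, adjusted p = 0.385). DDX47, a helicase of ribosomal RNA processing, had signals of 2.90, 3.01 and 2.88 in epidermal and of 2.96, 2.88 and 2.89 in corneal samples. The groups overlap, and its change of -0.02 had a 95% confidence interval of -0.14 to 0.10. DDX39B, which acts in both spliceosome assembly and mRNA export, changed by -0.05 (-0.15 to 0.05) and did not pass.

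Of 6 other RNA-binding proteins measured, 2 rose, 2 fell and 2 did not pass. The rises and the falls each made up 33.3%, near the 26.7% and 32.6% of all tested. STAU2, a double-stranded RNA-binding protein that moves mRNAs within the cell, had signals of -3.84, -3.60 and -3.88 in epidermal and of -2.86, -2.95 and -2.93 in corneal samples. It rose by 0.86 (SE 0.08; limma adjusted p = 0.000358), a 1.81-fold higher signal, and was the 1 rise of the set that was also called without scaling. In epidermal samples the STAU2 probe was about as dim as that of SNRPA, and after normexp the rise was 0.59. RBM23, a splicing regulator related to RBM39, had signals of 0.22, 0.20 and 0.16 in epidermal and of 0.55, 0.47 and 0.54 in corneal samples. It rose by 0.33 (SE 0.04; limma adjusted p = 0.000688), without overlap, and missed the threshold without scaling (0.16, adjusted p = 0.141).

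CIRBP, the cold-inducible RNA-binding protein, had signals at its probe in the set of -2.33, -2.37 and -2.35 in epidermal and of -2.68, -2.53 and -2.55 in corneal samples. It fell by 0.24 (SE 0.05; limma adjusted p = 0.00709), or by 0.14 after normexp. A further CIRBP probe, which the wording of the rule does not take, gave 1.6, 1.68 and 1.59 in epidermal and 1.18, 1.12 and 1.14 in corneal samples. It fell by 0.48 (SE 0.04; adjusted p = 0.000165 with every probe tested on its own), so both stretches were lower in corneal cells.

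STRBP, a double-stranded RNA-binding protein first studied in sperm cells, fell by 0.15 (SE 0.05; limma adjusted p = 0.0419), and this call was lost in 11 of 15 alternative analyses. TIA1, a splicing regulator and stress granule protein, changed by -0.06 (-0.19 to 0.06) and did not pass. RBM18 gave 2.17, 2.23 and 2.25 in epidermal and 2.30, 2.29 and 2.26 in corneal samples. These groups do not overlap, but the change of 0.07 (SE 0.03) did not pass (limma adjusted p = 0.135).

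**Figure D3:**
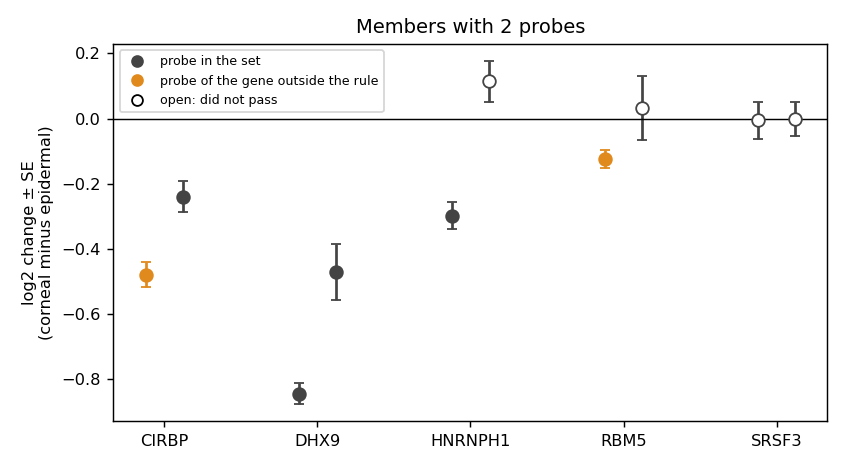
Log2 change, corneal minus epidermal, at each probe of the 5 genes with 2 probes. Points carry bars of 1 SE from limma with every probe tested on its own, 3 arrays per group. Orange marks a probe outside the set and open points a probe that did not pass. Both probes were called lower in corneal cells for CIRBP and DHX9, 1 of 2 for HNRNPH1 and RBM5, and neither for SRSF3.

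RBM5 also had a further probe outside the set, with signals of 2.53, 2.49 and 2.52 in epidermal and of 2.39, 2.37 and 2.40 in corneal samples. That probe fell by 0.13 (SE 0.03; adjusted p = 0.0109 with every probe tested on its own), while the RBM5 probe in the set did not pass. Of the 5 genes with 2 probes, CIRBP and DHX9 thus fell at both. SRSF3 passed at neither, but its probes share 41 bases and are nearly one measurement. For HNRNPH1 and RBM5 the call depended on the probe.

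How the set divides between higher and lower depended on how arrays were scaled. Without scaling, the median change of all tested moved from -0.04 to -0.21, and calls in the set became 1 higher and 16 lower. Higher calls then made up 5.88% of the set's calls and 22.3% of all calls, against 22.2% and 45.0% with the 75th percentile. With median centring these shares were 29.4% and 50.6%, and after normexp 25% and 54.4%. In each of the 6 scalings and sources compared, the share of higher calls was smaller in the set than over all tested.

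**Figure D4:**
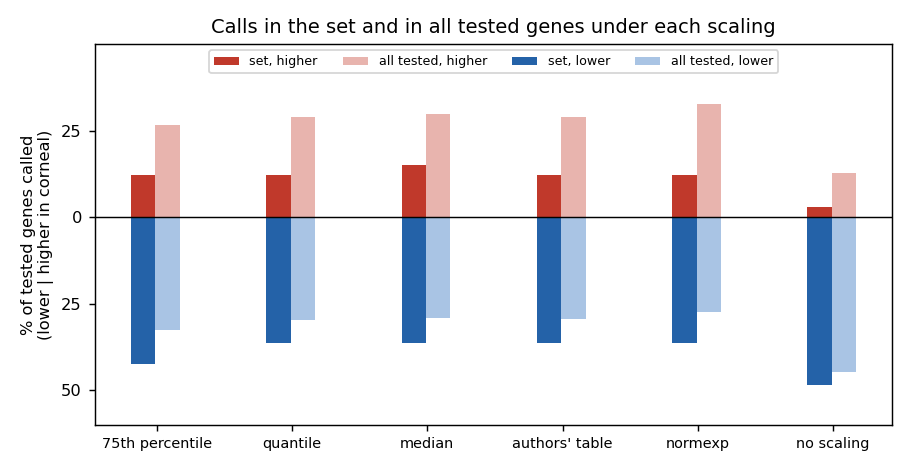
Percent of tested genes called higher or lower in corneal cells, for the set and for all genes and transcripts tested, under 6 ways of scaling or sources of the values. The share called lower in the set ran from 36.4% to 48.5% and the share called higher from 3.03% to 15.2%.

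A list of 156 further genes of pre-mRNA processing, export and decay, which the rule does not take, had 22 genes with a probe, all measured. Of these, 2 rose, 7 fell and 13 did not pass, with a median change of -0.10. The falls made up 31.8% of the list, near the 32.6% of all tested, and the rises 9.09% against 26.7%. In either direction 40.9% of the list was called, against 59.3%. SNW1, a spliceosome protein and transcriptional coregulator, had signals of 3.26, 3.30 and 3.30 in epidermal and of 2.94, 2.87 and 2.91 in corneal samples, and fell by 0.38 (SE 0.03; limma adjusted p = 0.000208). CWC27, a spliceosomal cyclophilin, fell by 0.35 (SE 0.03; limma adjusted p = 0.000313). NONO, a paraspeckle protein, fell by 0.32 (SE 0.03; limma adjusted p = 0.000579).

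The 2 rises of the list were small. CWC15, a spliceosome component, rose by 0.12 (SE 0.03; limma adjusted p = 0.0162), and PCBP2, a poly(C)-binding protein, rose by 0.09 (SE 0.03; limma adjusted p = 0.0306). Without scaling their changes were -0.05 and -0.08 and neither passed. With the replicate number as a block neither passed either (adjusted p = 0.0685 for CWC15 and 0.0888 for PCBP2). CWC15 also missed the threshold without epidermal sample 3, corneal sample 1 or corneal sample 3, and PCBP2 after normexp and without any 1 array other than epidermal sample 2.

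Several things that differ between the samples moved with these groups. Of gene spots, 80.2% ± 2.36 (SD, n = 3) were well above background in epidermal samples and 74.1% ± 1.56 (SD, n = 3) in corneal samples. Of 38 set probes, 35 (92.1%) were well above background on all 6 arrays, against 71.6% of all probes. Of 6 cell cycle genes measured from a list of 15, 4 rose and 1 fell, and the mean level of the list ran from -2.08 to -2.06 in epidermal and from -1.51 to -1.25 in corneal samples. The upper end, -1.25, came from corneal sample 3, where AURKA stood out. AURKA gave -3.50, -3.42 and -1.81 in corneal samples 1, 2 and 3. Of 8 mesenchymal and fibroblast genes measured from a list of 12, 5 fell and 3 did not pass, with mean levels of 5.46 to 5.66 in epidermal and 3.92 to 4.03 in corneal samples. That gap rested mostly on COL3A1, which fell by 4.51, and POSTN, which was above background on 0 corneal arrays, while the other 6 changed by -0.54 to 0.07. VIM, DCN, COL1A2 and COL1A1 were bright in both groups. VIM gave 8.50 to 8.74 in epidermal and 8.59 to 8.62 in corneal samples. Of 4 endothelial genes measured from a list of 7, 3 fell: FLT1, VWF and TIE1. VWF was above background on 0 corneal arrays, and for TIE1 the call and the level came from different probes. The mean level of the 6 genes of this list with a probe, unmeasured ones included, ran from -5.89 to -5.00 in epidermal samples. In corneal samples it ran from -6.61 to -6.47. The 1 immune gene measured, CD14, fell. The melanocyte list had 1 probe, TYR, which was not measured.

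The keratinocyte and corneal list of 11 genes had 5 with a probe, and 2 of these were measured. The mean level of the 5 genes with a probe ran from -6.66 to -6.44 in epidermal and from -6.56 to -6.38 in corneal samples. TP63, which marks basal epithelial cells, and KRT19 were above background on 0 arrays, and KRT14, the basal keratin, on 2 epidermal and 0 corneal arrays. In both groups, then, several mesenchymal genes were bright and these epithelial markers dim or undetected. The groups are named here as their labels name them. PAX6, the eye regulator, rose by 0.31 (limma adjusted p = 0.0129). The other gene measured, KRT15, changed by -0.14 (SE 0.13) and did not pass (limma adjusted p = 0.416). Its probe was clearly detected in only 1 corneal sample but in all 3 epidermal samples. The part of these differences in the changes of the splicing genes was not tested.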

How the data were processed

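RNA of 6 samples was hybridised to 1-colour Agilent arrays, and the submitters' processing notes name Agilent Feature Extraction 10.7, with which the authors turned scans into spot intensities. Per the file headers, the deposited processed signal is a linear intensity with background subtracted. The authors' deposited table of log2 values has a median of 7.23 in each column and correlated at 0.999 to 1.00 with that signal, on a log2 scale, for the same array. Its making is not described in the sources used here. It served as an alternative.

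Control spots and spots marked as outliers were left out, log2 signals were set against each array's 75th percentile, and 11742 of 15008 probes well above background on at least 3 arrays were kept. A gene with several kept probes was represented by the one of highest mean signal, taken for members among the probes of the set, so the further probes of CIRBP and RBM5, though of higher signal, do not stand for these genes. Changes were tested in R 4.3.3 with limma 3.58.1, 3 against 3 arrays without a block, and adjusted by Benjamini-Hochberg over 11243 genes and transcripts. Probes differ in affinity, so levels of different genes are no measure of their relative abundance, and changes were tested within a probe. The fit was tested on simulated data first.

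Names came from the array's columns, and 34 of the 35 symbols stand in a table of sheep RefSeq genes (assembly ARS-UI_Ramb_v3.0), from which no coordinates were taken. Genes to name were, by rule, the 12 largest rises and falls among called members, the 3 largest in each role, the 5 of highest mean signal, members whose probes differ in sign, a few fixed names such as CIRBP and SF3B1, and the 3 largest changes each way on the pathway list. The rule of the set used no measured value, but the genes to name and the lists were chosen with earlier results of these data known. Correlations between arrays were 0.995 to 0.998 within and 0.968 to 0.969 between groups. Precision is limited by the number of arrays. Alternatives covered background correction, scaling, the deposited table, the filter on dim probes, probes per gene, the replicate number as a block, and leaving out each array.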

Additional observations from a re-analysis of the deposited data

How the results depend on the processing

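Of the 18 called members, 13 kept their direction and stayed past the threshold in each of 15 alternative analyses, and the other 5 (DHX36, STRBP, RBM23, DDX54 and HNRNPK) kept their direction but lost the call in at least 1. Some alternatives kept the same probe and fitted change for these members, so they could move only the p-value and not turn a direction. They were every probe on its own, no filter on dim probes, all 6 arrays above background, and the replicate block. The second HNRNPH1 probe gave 0.11 (limma adjusted p = 0.167 with every probe tested on its own). Without scaling, 1 member was called higher and 2 were lower by at least 2-fold, SNRPA1 at -1.12 and DHX9 at -1.02, and HNRNPM (-0.27) and TIA1 (-0.24) passed. With no filter on dim probes 1 member, HNRNPH3, passed with a fitted change beyond 2-fold. It was above background on 0 corneal arrays, and against their lowest signals above background the difference was 1.13-fold. Median centring let RBM18 pass (0.10). Leaving out each array in turn gave 4 to 4 members called higher, 12 to 13 lower, 0 to 0 beyond 2-fold either way, and 6 to 10 pathway genes called, against 9 in the main analysis. The labels do not say whether the replicate numbers pair samples. Same-numbered arrays' deviations from their group means correlated at 0.02, -0.03 and 0.04, and those of differently numbered arrays at -0.05 to 0.03. With 3 arrays per group these values cannot settle whether samples were paired. With the replicate number as a block, 4 members were called higher, 13 lower and 7 pathway genes in either direction, and all tested fell from 59.3% to 52.9% called.

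Members and pathway genes that changed sign are given here, and the cause was not tested. Without scaling the values were -0.052 for CWC15, -0.076 for PCBP2, -0.10 for RBM18, -0.14 for RBM5 and -0.12 for SF3B1. After normexp they were 0.0012 for DDX39B, 0.0039 for DDX47, 0.072 for the SNRPD1-like probe and 0.0095 for SRSF3. With median centring they were 0.016 for DDX47, 0.015 for SNRNP70 and 0.030 for SRSF3. SNRNP70 gave 0.0034 with quantile normalization and 0.0079 in the authors' deposited table. With 1 array left out in turn, values ran from -0.045 to 0.020 for DDX47, from -0.23 to 0.0037 for HNRNPUL2, from -0.050 to 0.087 for RBM5, from -0.058 to 0.041 for SNRNP70 and from -0.052 to 0.032 for SRSF3. Members near background, such as HNRNPH3, PCF11, the SNRPD1-like probe and SNRPA, are limited by signal.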
